A study of Rattus norvegicus with 12 samples.

Results

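The insulin-like growth factor (IGF) system was examined in the pubocaudalis, a muscle of the rat pelvic floor, after simulated birth injury (SBI). Its members were taken by gene symbol and were the ligands Igf1 and Igf2, the receptors Igf1r and Igf2r, and the binding proteins Igfbp2, Igfbp3, Igfbp4, Igfbp5, Igfbp6 and Igfbp7. All 10 were found among the 30206 genes of the count table, and 9 passed the filter on low counts. Bulk RNA was sequenced from 3-month-old female Sprague-Dawley rats that had been pregnant and had their vagina distended with a balloon late in pregnancy to mimic birth injury. The 1wk SBI and 3wk SBI groups were non-lactating rats whose pups were taken away after delivery. The 1wk SBI + Lac and 3wk SBI + Lac groups were lactating rats that kept their pups. In both states muscle was taken 1 or 3 weeks after injury. Weaning in the study was at 3 weeks, so the 1wk SBI + Lac rats were sampled before weaning. Each group had 6 rats, whose RNA was pooled in pairs into 3 libraries, so every value comes from a pool of 2 rats and n counts pools. All 12 libraries came from injured rats, so no value can be set against uninjured muscle. The lactating dams also lived with a litter and the others did not, so suckling and the presence of pups cannot be told apart here.

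IGF-I and IGF-II are secreted growth factors. In skeletal muscle they are known to drive protein synthesis and the proliferation and differentiation of muscle precursor cells, mainly by activating the IGF1R tyrosine kinase, which signals through IRS adaptors, PI3-kinase and AKT. IGF2R binds IGF-II and carries it to lysosomes for degradation. The IGF binding proteins hold the ligands in tissue and blood, and can block or prolong their action, while proteases such as PAPP-A cut some of them and set the ligand free.

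Proximal promoter sequences are shown for Igf1, Igf2, Igfbp4 and Igfbp5, the 4 members with an unadjusted p under 0.05 for lactation at 1 week, all of them lower, to give the sequence around their starts. They are the 250 bases before an annotated start site, 5′ to 3′ on the gene's own strand, from RefSeq on the GRCr8 build, in which all 10 members were matched. Igf1 lies at chr7:24172282-24172531 on the plus strand. The Igf2 starts lie at chr1:207253981-207254230 and chr1:207250476-207250725, both on the minus strand. Igfbp4 lies at chr10:84491221-84491470 on the plus strand, and Igfbp5 at chr9:81914188-81914437 on the minus strand. Capitals mark each match on either strand to a TATA box (TATAAA) or an E-box (CANNTG), the motif bound by MyoD-family and other basic helix-loop-helix factors.
Igf1: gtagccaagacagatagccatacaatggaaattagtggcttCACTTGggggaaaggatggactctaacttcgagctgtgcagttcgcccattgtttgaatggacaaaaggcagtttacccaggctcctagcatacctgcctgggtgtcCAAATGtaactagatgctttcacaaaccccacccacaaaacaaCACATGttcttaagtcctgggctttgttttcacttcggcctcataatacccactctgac
Igf2, upstream start: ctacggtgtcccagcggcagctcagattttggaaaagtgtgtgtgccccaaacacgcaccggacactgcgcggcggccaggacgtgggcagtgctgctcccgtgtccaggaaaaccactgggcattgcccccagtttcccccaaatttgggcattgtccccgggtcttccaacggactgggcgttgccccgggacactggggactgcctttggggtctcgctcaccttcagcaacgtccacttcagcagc
Igf2, downstream start: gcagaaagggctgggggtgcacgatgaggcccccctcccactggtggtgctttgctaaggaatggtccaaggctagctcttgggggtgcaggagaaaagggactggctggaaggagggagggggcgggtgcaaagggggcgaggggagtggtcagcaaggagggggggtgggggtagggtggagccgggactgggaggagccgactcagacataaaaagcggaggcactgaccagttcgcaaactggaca
Igfbp4: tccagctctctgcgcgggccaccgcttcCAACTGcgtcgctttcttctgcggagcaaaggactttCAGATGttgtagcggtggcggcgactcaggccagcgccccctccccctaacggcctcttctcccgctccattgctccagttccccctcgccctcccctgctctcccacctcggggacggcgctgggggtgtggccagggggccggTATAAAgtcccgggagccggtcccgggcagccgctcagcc
Igfbp5: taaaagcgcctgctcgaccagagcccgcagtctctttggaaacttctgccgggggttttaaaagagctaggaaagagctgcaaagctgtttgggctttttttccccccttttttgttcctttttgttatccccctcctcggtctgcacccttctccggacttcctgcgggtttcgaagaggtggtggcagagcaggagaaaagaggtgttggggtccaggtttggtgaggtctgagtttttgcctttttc

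The Igf1 window held 3 E-boxes, and the Igfbp4 window held 2 E-boxes and a TATA box that begins 40 bases before the start. No match to either motif was found in the Igfbp5 window or in the windows of the Igf2 starts, and a STAT element (TTCNNNGAA, both strands) was found in none of the 11 member windows. Of 33469 rat promoter windows of this length, 65.5% held an E-box, 12.9% the TATA box and 7.67% the STAT element. No 2 matches overlapped in the windows shown. These are matches of letters only, and no binding was measured here.

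Total counts per library ran from 10082734 to 75634391, and at 1 week every non-lactating library was deeper than every lactating one. The 1-week columns hold whole counts, whereas 26.6% to 44.0% of the values in each 3-week column carry decimals, so a difference between 3 weeks and 1 week also holds any difference in how the values were made. Levels are given as normalized CPM, CPM meaning counts scaled to a common library size, with TMM factors for library composition, and differences as log2 fold changes from edgeR's quasi-likelihood test over all 12 libraries. A gene was called at a Benjamini-Hochberg adjusted p under 0.05, over 14599 genes, together with an absolute log2 fold change above 1. The defining markers of muscle were abundant, with 8 mature myofiber genes summing to between 74200 and 188000 normalized CPM. The library 3wk SBI replicate 3 stood apart from the other 3wk SBI libraries, with summed markers of 888 against 397 and 422 normalized CPM for 10 macrophage genes and 6670 against 3130 and 3020 for 8 fibroblast and fibro-adipogenic genes.

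The ligands were examined first. Igf1 (ENSRNOG00000004517) stood at 116, 112 and 62.7 normalized CPM in the 1wk SBI libraries, at 46.1, 53.1 and 72.9 in 1wk SBI + Lac, at 34.1, 46.5 and 68.8 in 3wk SBI, and at 38.0, 30.7 and 29.0 in 3wk SBI + Lac. The group means therefore ran downward from 96.8 ± 29.5 (SD, n = 3) in 1wk SBI to 57.3 ± 13.9, 49.8 ± 17.6 and 32.6 ± 4.80, but the libraries of each group overlapped those of the next in this order. The lowest 1wk SBI library, replicate 3, lay below the highest lactating library of the same time, and the highest 3wk SBI library, replicate 3, lay above all 3 of 3wk SBI + Lac.

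Igf2 (ENSRNOG00000020369), the IGF ligand strongly expressed during development and induced as myoblasts differentiate, stood at 1088, 501 and 685 normalized CPM in 1wk SBI and at 380, 412 and 598 in 1wk SBI + Lac. At 3 weeks it stood at 164, 272 and 276 in 3wk SBI and at 118, 155 and 155 in 3wk SBI + Lac. Every 3-week library was below every 1-week library, and at 3 weeks every lactating library was below every non-lactating one, whereas at 1 week the groups overlapped through 1wk SBI + Lac replicate 3.

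**Figure D1:**
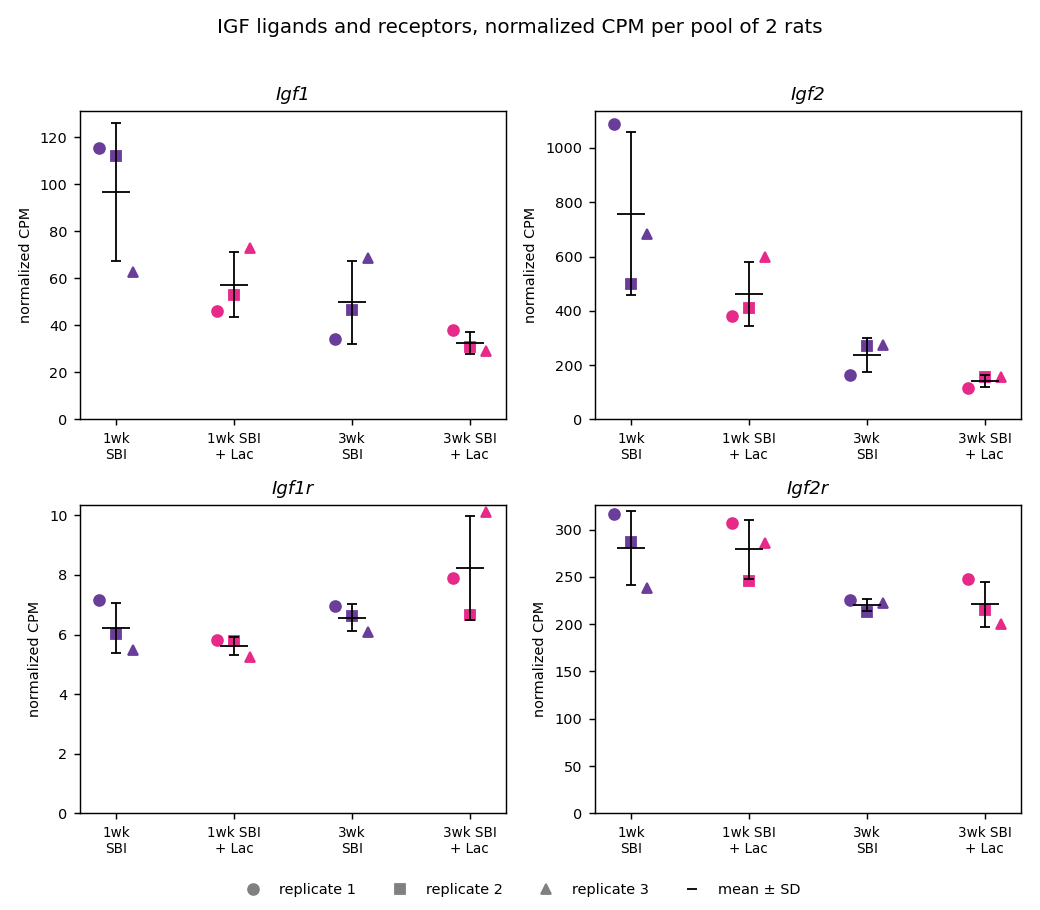
Normalized CPM (y axis, linear from 0) of Igf1, Igf2, Igf1r and Igf2r in the 4 groups (x axis), with 1 point per library (a pool of 2 rats), the marker shape giving the replicate, and black bars giving mean ± SD (n = 3). Igf2 runs from 1088 in a 1wk SBI library down to 118 in a 3wk SBI + Lac library, while Igf1r stays between 5.26 and 10.1.

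Neither receptor was called in any comparison. Igf1r (ENSRNOG00000014187), which carries the growth signal, stood at 7.15, 6.02 and 5.48 normalized CPM in 1wk SBI, against 5.80, 5.80 and 5.26 in 1wk SBI + Lac. At 3 weeks it stood at 6.97, 6.63 and 6.07 without lactation, against 7.91, 6.65 and 10.1 with it. The groups overlapped within each week, but every 1wk SBI + Lac library was below every 3-week library, and the highest library, 3wk SBI + Lac replicate 3, was also among the shallowest. Igf2r (ENSRNOG00000014997), which clears IGF-II, ranged from 239 to 317 in 1wk SBI, 245 to 307 in 1wk SBI + Lac, 213 to 225 in 3wk SBI and 200.4 to 247 in 3wk SBI + Lac.

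Among the binding proteins, Igfbp5 (ENSRNOG00000017206), the family member known for its expression in differentiating muscle cells, was lower with lactation at both times. The 1wk SBI libraries held 2727, 1939 and 1650 normalized CPM, against 1225, 1313 and 1112 in 1wk SBI + Lac. The 3wk SBI libraries held 1422, 1316 and 1505, against 813, 702 and 804 in 3wk SBI + Lac. At each time every lactating library was below every non-lactating one. The group means were 2105 ± 557 (SD, n = 3), 1216 ± 101, 1414 ± 94.7 and 772.8 ± 61.5, and 1wk SBI + Lac lay just under 3wk SBI with no shared range, since the highest of the former was 1313 and the lowest of the latter 1316.

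Igfbp4 (ENSRNOG00000010635), an inhibitor of IGF action that PAPP-A cuts, stood at 119, 121 and 74.4 normalized CPM in 1wk SBI, against 49.5, 50.8 and 77.1 in 1wk SBI + Lac. At 3 weeks its libraries held 32.0, 35.8 and 56.7 without lactation, against 31.7, 30.3 and 20.4 with it. Its profile over the 12 libraries was the closest to that of Igf1 among all pairs of members, with a root mean square difference of 0.216 between centred log2 CPM profiles. In both genes the same library was the lowest of 1wk SBI, the highest of 1wk SBI + Lac and the highest of 3wk SBI, in each case replicate 3. In those libraries the summed fibroblast and fibro-adipogenic markers were also lowest of their group in 1wk SBI, at 5950 normalized CPM. They were highest in 1wk SBI + Lac and 3wk SBI, at 6600 and 6670. Macrophage sums ranked likewise, at 545.2, 479.9 and 888.4, as did adipocyte sums, at 37.51, 40.18 and 52.85. Mature myofiber sums ranked in reverse, at 118200, 116700 and 113600. Regenerating myofiber, satellite cell, endothelial, smooth muscle and erythroid sums did neither. The part of any of these cell types in the levels of Igf1 and Igfbp4 was not tested.

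Igfbp3 (ENSRNOG00000061910), the main IGF carrier of blood, took another course. Its level at 1 week was 29.1, 26.9 and 30.7 normalized CPM without lactation, against 22.6, 41.3 and 29.9 with it. At 3 weeks the level was 46.6, 69.3 and 61.2 without lactation, against 43.9, 35.0 and 26.4 with it. The 3wk SBI libraries were above all others, and the other 3 groups overlapped.

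Igfbp6 (ENSRNOG00000010977), which binds IGF-II in preference to IGF-I, ranged from 43.4 to 60.0 in 1wk SBI, 45.2 to 78.6 in 1wk SBI + Lac, 48.0 to 69.5 in 3wk SBI and 37.0 to 66.2 normalized CPM in 3wk SBI + Lac. Igfbp7 (ENSRNOG00000002050), a low-affinity relative found in vessel walls and matrix, ranged from 88.1 to 96.1, 80.7 to 102, 70.8 to 120 and 58.5 to 73.3 in the same order. Neither gene separated any lactating group from its non-lactating group of the same time.

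Igfbp2 (ENSRNOG00000016957) was near the limit of detection and was not tested. Its counts at 1 week were 19, 10 and 5 without lactation, against 3, 5 and 7 with it. At 3 weeks the counts were 0, 4 and 33 without lactation, against 6, 13 and 0 with it, and the highest level was 0.396 normalized CPM. The count of 0 in 3wk SBI replicate 1 allows up to 0.322 normalized CPM and that in 3wk SBI + Lac replicate 3 up to 0.330, taking 3 counts as the limit of a 0, which covers counting error only. The files do not resolve a difference between groups at this depth.

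**Figure D2:**
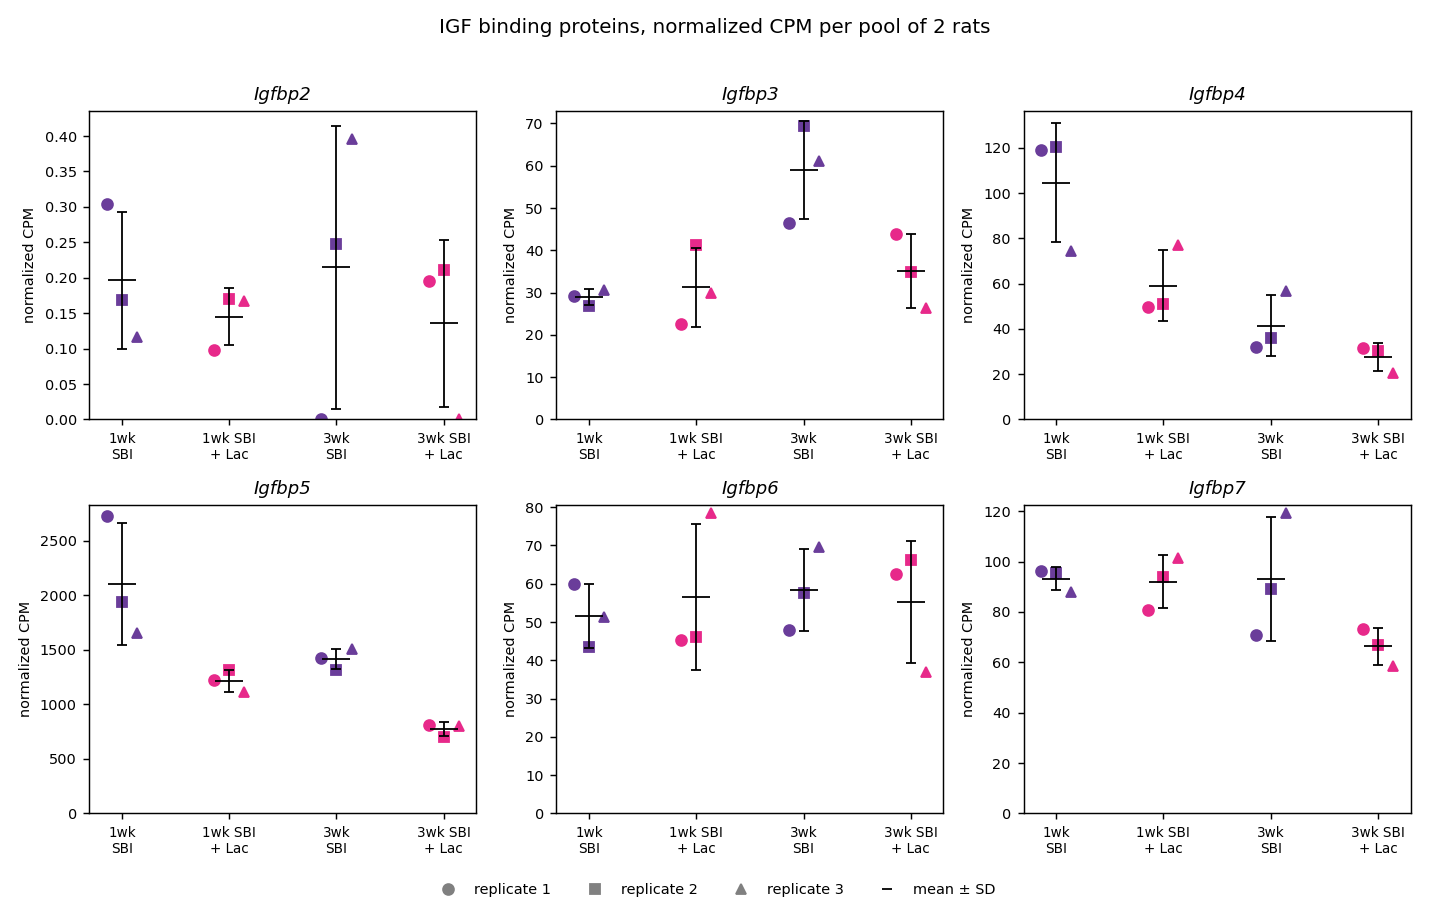
Normalized CPM (y axis, linear from 0, a separate scale in each panel) of the 6 binding proteins in the 4 groups (x axis), with 1 point per pool of 2 rats, the marker shape giving the replicate, and black bars giving mean ± SD (n = 3). Igfbp5 is lower in all lactating libraries than in the non-lactating ones of the same week, Igfbp3 is highest in 3wk SBI, and Igfbp2 stays at or below 0.396.

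To ask what lactation changed at 1 week after SBI, 1wk SBI + Lac was compared with 1wk SBI. None of the 9 tested members was called, against 0.253% of all genes tested, and none passed the adjusted p alone, against 0.569%. Unadjusted p-values were under 0.05 for 4 of the 9, against 18.9% of all genes, and by DESeq2 on all libraries or on only those compared 0 members passed both cutoffs. The adjusted p alone was passed by Igfbp4 and Igfbp5 with both DESeq2 fits (lowest 0.00603 and 0.000253), by Igf1 with DESeq2 on only the libraries compared (0.0232) and by Igfbp5 with edgeR and no low-count filter (0.0336). The 4 members with an unadjusted p under 0.05 were Igf1, Igf2, Igfbp4 and Igfbp5, and each was lower in the lactating rats. The 9 members had a median log2 difference of -0.15, beside -0.004 over all genes.

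Igfbp5 came closest, at 1.73-fold lower with lactation (log2 fold change -0.79, SE 0.17, edgeR adjusted p = 0.0506), and its groups did not overlap, as was so in this direction for 14.1% of all genes. Leaving out 1wk SBI replicate 3 gave -0.94 (edgeR adjusted p = 0.0054), and leaving out 1wk SBI replicate 1, the highest library, gave -0.56 (edgeR adjusted p = 0.261). Igfbp4 was 1.77-fold lower (log2 -0.82, SE 0.27, edgeR adjusted p = 0.132) with overlapping groups, and it was called only without 1wk SBI replicate 3 (log2 -1.01, edgeR adjusted p = 0.0487). Igf1 was 1.69-fold lower (edgeR adjusted p = 0.183) and Igf2 1.64-fold lower (edgeR adjusted p = 0.195), and neither passed in this fit. Without 1wk SBI replicate 3 the Igf1 difference was -0.99 (edgeR adjusted p = 0.048), past the adjusted p but not the fold cutoff. The Igf2 difference was -0.71 on the log2 scale and -0.355 without 1wk SBI replicate 1.

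The other 5 members had smaller differences at 1 week. Igf2r had a log2 fold change of -0.007 with a 95% interval from -0.285 to 0.271, so the data bound its difference to less than that range, and Igf1r had -0.15 with an interval from -0.51 to 0.21. The estimates for Igfbp3, Igfbp6 and Igfbp7 were 0.11, 0.14 and -0.02, with edgeR adjusted p-values of 0.813, 0.803 and 0.966.

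At 3 weeks, lactation was again tested by comparing 3wk SBI + Lac with 3wk SBI. Igfbp5 fell by 0.87 on the log2 scale (SE 0.17, edgeR adjusted p = 0.0181), which is 1.83-fold lower, and this passed the adjusted p but not the fold cutoff. It was the only member past the adjusted p, a threshold that 2.54% of all genes passed, and 0 of 9 members passed both cutoffs, against 0.740% of all genes. By DESeq2, on all libraries or on only those compared, 0 members passed both cutoffs as well. The adjusted p of Igfbp5 rose to between 0.0532 and 0.0807 when 3wk SBI replicate 3 or any of the 3wk SBI + Lac libraries was left out, with the estimate then between -0.913 and -0.808.

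The groups did not overlap for 4 members, all lower with lactation, namely Igf2, Igfbp3, Igfbp4 and Igfbp5, where 10.4% of all genes did so in that direction. Igfbp3 was 1.67-fold lower (log2 -0.74, SE 0.22, edgeR adjusted p = 0.0868) and Igf2 likewise 1.67-fold lower (log2 -0.74, SE 0.28, edgeR adjusted p = 0.16). Igfbp4 was 1.51-fold lower (log2 -0.59, edgeR adjusted p = 0.239). None of these 3 passed the adjusted p in this fit, whereas Igfbp3 passed it with DESeq2 on all libraries (adjusted p = 0.018) and on only those compared (0.00531), and Igf2 with the latter alone (0.0036).

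Igf1 was 1.54-fold lower at 3 weeks (log2 -0.625, edgeR adjusted p = 0.244) and Igfbp7 1.41-fold lower (log2 -0.495, edgeR adjusted p = 0.0967), with overlapping groups. Igfbp7 had an adjusted p of 0.0485 with DESeq2 on all libraries, and 0.0325 in edgeR without 3wk SBI replicate 1. Without 3wk SBI replicate 3, the library with high macrophage and fibroblast markers, the log2 fold changes were -0.31 for Igf1, -0.28 for Igfbp4 and -0.27 for Igfbp7, while that of Igfbp5 was -0.82 and that of Igfbp3 -0.71. Igf1r was higher by 0.31 (95% interval -0.07 to 0.69, edgeR adjusted p = 0.34), and Igf2r had 0.006 (95% interval -0.27 to 0.28). The median over the 9 members was -0.59, beside -0.02 over all genes.

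**Figure D3:**
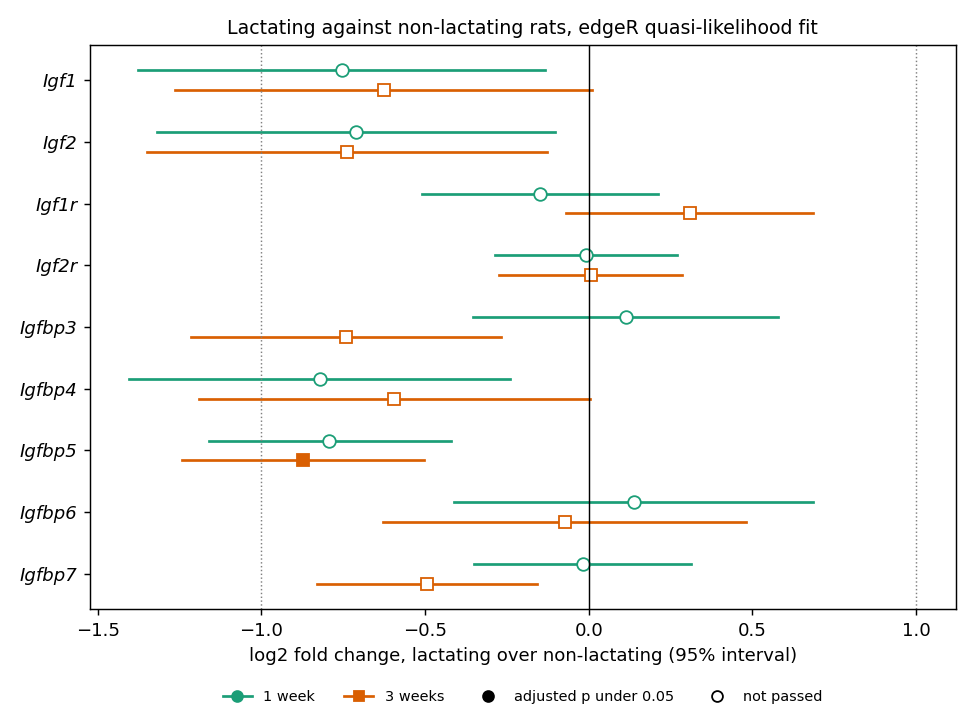
Log2 fold change of lactating over non-lactating rats (x axis) for the 9 tested members (y axis), at 1 week (circles) and 3 weeks (squares), with 95% intervals from the edgeR fit, filled symbols for an adjusted p under 0.05, and dotted lines at the fold cutoff of 1. Igfbp5 at 3 weeks, at -0.87, is the only filled symbol, and Igf2r lies near 0 at both times.

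The difference between the lactation effects at 3 weeks and 1 week was tested as an interaction. No member was called, where 0.00685% of all genes were, with edgeR adjusted p = 0.999 for each of the 9, and 2 members had an unadjusted p under 0.05, against 4.42% of all genes. DESeq2 on all libraries also called 0 members. For Igfbp3 the effect went from 0.11 at 1 week to -0.74 at 3 weeks, a difference of -0.85 (SE 0.31, unadjusted p = 0.0157 in the edgeR fit), and for Igfbp7 the difference was -0.48 (unadjusted p = 0.0477). For Igfbp5 the effects were -0.79 and -0.87, and their difference of -0.08 had a 95% interval from -0.60 to 0.44. The intervals for Igf1 (-0.76 to 1.015) and Igf2 (-0.885 to 0.83) were wider, so differences of that size between the time points cannot be told from none.

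Time after SBI was compared within each lactation state, with the limit on the 3-week values given above. Without lactation, Igf2 fell by 1.67 on the log2 scale from 1 to 3 weeks (SE 0.29, edgeR adjusted p = 0.00879), which is 3.19-fold. Igfbp4 fell by 1.32 (SE 0.27, edgeR adjusted p = 0.0203) and Igfbp3 rose by 1.04 (SE 0.22, edgeR adjusted p = 0.0193), which is 2.05-fold. These 3 of 9 members were called, against 1.46% of all genes, and the same 3 made up the members past the adjusted p alone, against 5.05%.

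The groups of the non-lactating comparison did not overlap for Igf2, Igf2r, Igfbp4 and Igfbp5, which were lower at 3 weeks as were 11.4% of all genes, and for Igfbp3, which was higher as were 10.2%. Igfbp5 had a log2 fold change of -0.57 (edgeR adjusted p = 0.0692), Igf1 -0.94 (edgeR adjusted p = 0.0873) and Igf2r -0.35 (edgeR adjusted p = 0.137). By DESeq2, on all libraries or on only those compared, Igf2, Igfbp3 and Igfbp4 were likewise the members called, and Igf1 (0.00632 and 0.0198) and Igfbp5 (0.00739 and 0.0491) passed the adjusted p alone. Igf2 was called whichever library was left out. Igfbp3 and Igfbp4 were not called without 1wk SBI replicate 1 (edgeR adjusted p = 0.0942 and 0.103), 1wk SBI replicate 2 (0.0866 and 0.0819) or 3wk SBI replicate 2 (0.0949 and 0.104), and Igfbp4 was not called without 3wk SBI replicate 1 (0.0717). Igf1 was called without 1wk SBI replicate 3 (log2 -1.17, edgeR adjusted p = 0.0172) or 3wk SBI replicate 3 (log2 -1.26, edgeR adjusted p = 0.0221).

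With lactation, Igf2 fell by 1.70 (SE 0.29, edgeR adjusted p = 0.0137), which is 3.25-fold, and was the only member of 9 called, against 0.774% of all genes, and the only one past the adjusted p alone, against 2.01%. The Igf2 call was lost without 1wk SBI + Lac replicate 3 (edgeR adjusted p = 0.0553) or without 3wk SBI + Lac replicate 1, 2 or 3 (0.0847, 0.0593 and 0.0527), with the estimate then between -1.77 and -1.47. Igfbp4 was 2.13-fold lower (log2 -1.09, edgeR adjusted p = 0.064), and it was called beside Igf2 by DESeq2 on all libraries (adjusted p = 0.00127), by DESeq2 on only those compared (6.14e-07) and by edgeR on only those compared (0.0296). Igfbp5 was 1.57-fold lower (log2 -0.65, edgeR adjusted p = 0.0627), and those same 3 fits gave it an adjusted p of 0.00282, 1.98e-08 and 0.00449. They put Igf1 past the adjusted p as well, at 0.0389, 7.86e-05 and 0.0247, and neither gene reached the fold cutoff. On only the libraries compared, Igfbp7 passed the adjusted p with DESeq2 (0.00356, log2 -0.464) and edgeR (0.0247, log2 -0.464). Igf2r passed it there with DESeq2 alone (0.045, log2 -0.333).

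In the lactating groups 5 members, Igf1, Igf2, Igfbp4, Igfbp5 and Igfbp7, were lower in every 3-week library, where 14.7% of all genes did so, and 1 member, Igf1r, was higher in every 3-week library, where 13.4% did so. For Igf1r the log2 fold change was 0.52 (edgeR adjusted p = 0.13). For Igfbp3 it was 0.18 (95% interval -0.29 to 0.65, edgeR adjusted p = 0.707), beside the 1.04 without lactation. The difference between these estimates is the interaction given above, for which the edgeR adjusted p was 0.999.

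**Figure D4:**
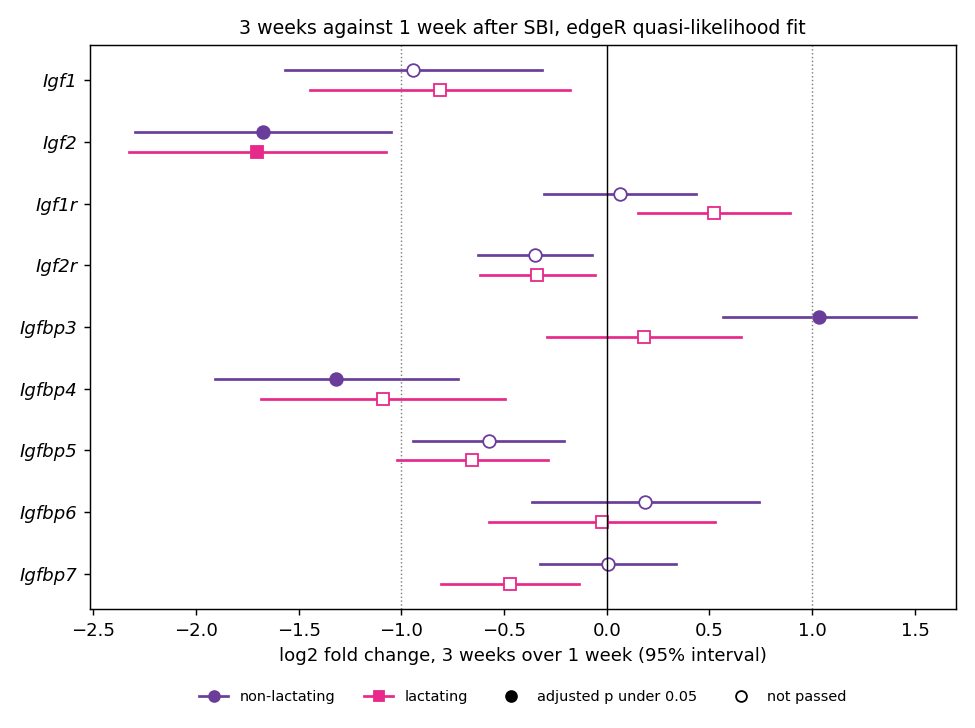
Log2 fold change of 3 weeks over 1 week after SBI (x axis) for the 9 tested members (y axis), in non-lactating (circles) and lactating rats (squares), with 95% intervals from the edgeR fit, filled symbols for an adjusted p under 0.05, and dotted lines at the fold cutoff of 1. Igf2 is lower in both states, at -1.67 and -1.70, and Igfbp3 is higher at 1.04 without lactation and 0.18 with it.

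Summed markers of several cell types differed in level between the groups, some with overlapping ranges, and no sum was tested. In bulk muscle fewer cells of a type cannot be told apart from less RNA per cell. The 8 fibroblast and fibro-adipogenic markers summed to 5950 to 8490 normalized CPM in 1wk SBI, 3630 to 6600 in 1wk SBI + Lac, 3020 to 6670 in 3wk SBI and 1870 to 2670 in 3wk SBI + Lac. With lactation 7 of the 8 were lower at 1 week and 7 at 3 weeks, with 0 called, against 0.253% and 0.740% of all genes. The 7 regenerating myofiber markers summed to 1550 to 3500, 814 to 1240, 247 to 766 and 192 to 235 in the same order, and 6 of 7 were lower with lactation at each time, with 0 called. From 1 to 3 weeks all 7 of them were lower in both lactation states. Without lactation 4 were called (Myh8, Mymk, Mymx and Ncam1), against 1.46% of all genes. With it 3 were called (Mymk, Mymx and Ncam1), against 0.774%. Of the 8 fibroblast markers, 5 were lower over time without lactation and 1 of them, Lum, was called, against 1.46% of all genes. With lactation 7 of the 8 were lower over time and 0 were called, against 0.774%. The 3 satellite cell markers (Pax7, Myf5 and Cdh15) summed to 26.6 to 38.3 in 1wk SBI against 18.3 to 22.1 in 1wk SBI + Lac, without overlap. At 3 weeks they summed to 23.7 to 30.3 in 3wk SBI against 22 to 24.1 in 3wk SBI + Lac. With lactation 3 of the 3 were lower at 1 week and 2 at 3 weeks, with 0 called. The called markers are named after their values were seen.

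The 8 mature myofiber markers, of 9 listed, ran the other way. They summed to 74200 to 118000 normalized CPM in 1wk SBI and, overlapping it, 117000 to 140000 in 1wk SBI + Lac. At 3 weeks they summed to 114000 to 152000 in 3wk SBI and 166000 to 188000 in 3wk SBI + Lac. With lactation 0 of the 8 were lower at 1 week and 2 at 3 weeks, with 0 called. The 10 macrophage markers summed to 545 to 581, 343 to 480, 397 to 888 and 363 to 605. With lactation 9 of the 10 were lower at 1 week with 0 called, against 0.253% of all genes. At 3 weeks 10 of 10 were lower with 1 called, Cd68 (log2 -1.08, edgeR adjusted p = 0.015), against 0.740%. The 4 erythroid markers summed to 242 to 414 in 1wk SBI, against 556 to 780 with lactation, without overlap, and to 97.3 to 183 against 132 to 242 at 3 weeks. All 4 were higher with lactation at each time with 0 called in the edgeR fit, against 0.253% and 0.740% of all genes. The study's own DESeq2 list of genes higher with lactation at 1 week, at the same cutoffs, holds all 4. In both states all 4 were lower at 3 weeks than at 1 week. Of these, Hbb was called without lactation, against 1.46% of all genes, and Hba-a1, Hbb and Alas2 with it, against 0.774%. The 5 milk and mammary markers were at 0 in every 1wk SBI library and at most 0.012 in 3wk SBI, against 0.557 to 2.80 in 1wk SBI + Lac and 0.330 to 36.8 in 3wk SBI + Lac. Among the tested members, the mean levels of Igf1, Igf2, Igfbp4, Igfbp5 and Igfbp7 were higher without lactation at each time. So were the median sums of the macrophage, fibroblast, regenerating myofiber, satellite cell, endothelial and adipocyte markers. Those of the mature myofiber, smooth muscle, erythroid and milk markers were lower without lactation at each time. The part of any of these cell types in the members' differences was not tested.

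**Figure D5:**
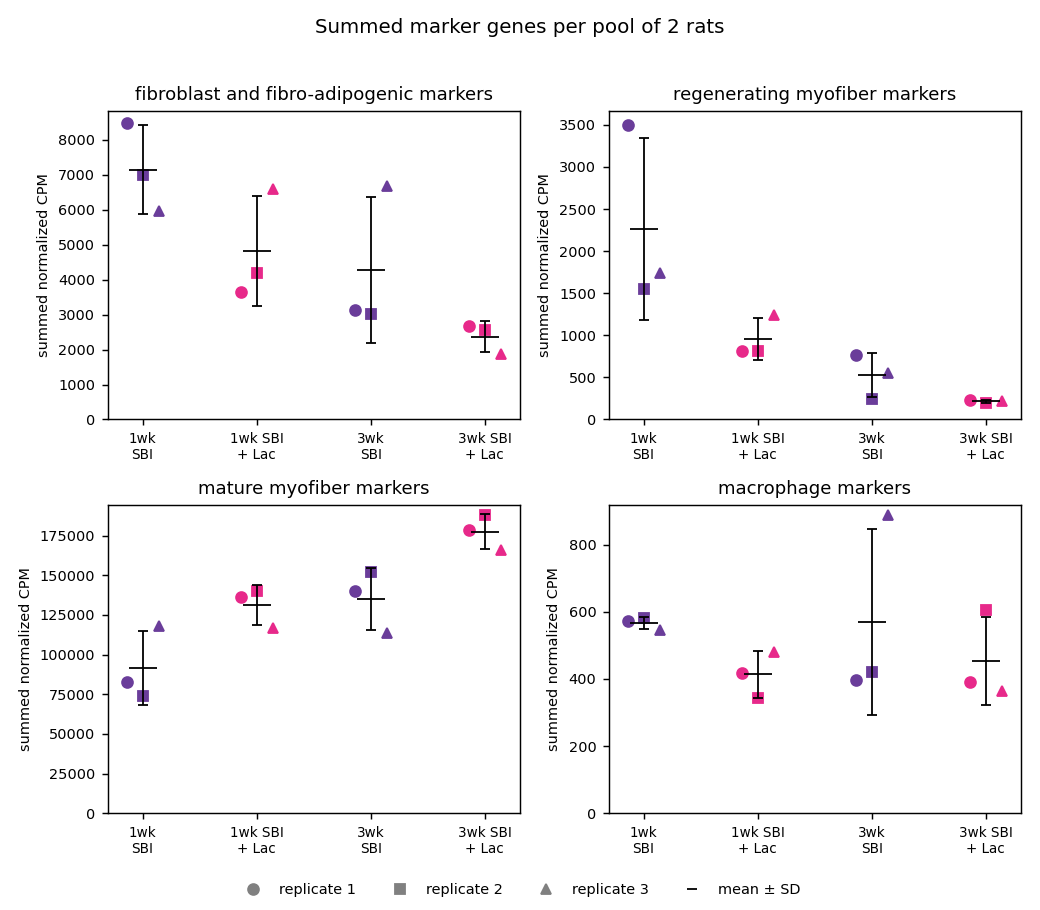
Summed normalized CPM (y axis, linear from 0) of the fibroblast and fibro-adipogenic, regenerating myofiber, mature myofiber and macrophage marker genes in the 4 groups (x axis), with 1 point per pool of 2 rats, the marker shape giving the replicate, and black bars giving mean ± SD (n = 3). The regenerating sum is as high as 3500 in 1wk SBI and at most 235 in 3wk SBI + Lac, and 3wk SBI replicate 3 stands out in the fibroblast and macrophage panels.

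The genes with profiles most like those of 3 members were found by the root mean square difference between centred log2 CPM over the 12 libraries, among 9339 genes with a mean of at least 5 normalized CPM. For Igf1 they were Lum, at 0.132, and then RGD1304884, Cdh11, Adgra2 and Fkbp10, up to 0.187, beside a median of 0.689 over all genes compared. Lum, a matrix proteoglycan, is also among the fibroblast markers above. For Igf2 they were Gatm, at 0.260, Bgn, Srpx2, Capn6 and Tmsb10, up to 0.343, beside a median of 0.992. For Igfbp5 they were Tbc1d1, at 0.179, Tanc2, Cul7, Abca1 and Shmt1, up to 0.208, beside a median of 0.586. All of these profiles share the same libraries.

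Genes around the members in the pathway were taken from a list of 43, of which 39 were tested. With lactation, 0 of 39 were called at 1 week or at 3 weeks, against 0.253% and 0.740% of all genes. The adjusted p alone was passed by 0 at 1 week, against 0.569%, and by 1 at 3 weeks, against 2.54%. That gene was Pik3r1, the regulatory subunit of PI3-kinase that binds IRS adaptors, at 89.8 ± 18.6 normalized CPM (SD, n = 3) in 3wk SBI + Lac against 52.7 ± 8.17 without lactation, a rise of 0.775 on the log2 scale (SE 0.16, edgeR adjusted p = 0.0253). By unadjusted p under 0.05 there were 7 of 39 at 1 week and 10 of 39 at 3 weeks, against 18.9% and 21.1% of all genes, and the medians were -0.03 and -0.05.

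Insr, the insulin receptor, had log2 fold changes with lactation of 0.41 at 1 week (edgeR adjusted p = 0.145) and 0.54 at 3 weeks (edgeR adjusted p = 0.0642). Akt2, the AKT isoform of insulin-responsive tissues, had 0.42 at 3 weeks (edgeR adjusted p = 0.0658). At 1 week Shc1, an adaptor of the receptor, had -0.44 (edgeR adjusted p = 0.0856) and Cish, a cytokine-inducible inhibitor of growth hormone and prolactin receptor signalling, had -0.955 (edgeR adjusted p = 0.0711).

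Cish was the 1 gene of the 39 called between the time points with lactation, against 0.774% of all genes. Without lactation 0 were called, against 1.46%. Cish stood at 6.76 ± 2.01 normalized CPM (SD, n = 3) in 1wk SBI + Lac against 24.0 ± 7.43 at 3 weeks of lactation, a rise of 1.84 on the log2 scale (SE 0.24, edgeR adjusted p = 0.00364). In the non-lactating rats it stood at 13.0 ± 1.72 and 18.2 ± 1.05 (log2 0.48, edgeR adjusted p = 0.261), and the difference between its lactation effects, 1.36 (SE 0.34), had an edgeR adjusted p of 0.757. Among the sets within the list, the 5 genes for IGFBP proteases and their inhibitors and the 3 tested receptors and carriers had 0 calls in any comparison, and so did the 21 signalling genes. Over time some signalling genes passed the adjusted p alone. Without lactation these were 1 lower and 1 higher, where 5.05% of all genes passed. With lactation they were 2 lower and 1 higher, where 2.01% passed. The 8 growth hormone genes had 1 past it in each state, higher at 3 weeks.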

How the data were processed

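Bulk RNA sequencing counts of the pubocaudalis were analysed in 12 libraries, 3 per group, each from the pooled RNA of 2 rats. The study calls the pools technical replicates, so p-values measure only the spread between pools. The authors deposited whole-number counts per gene for 1 week and, for 3 weeks, expected counts with decimals, not normalized, which were rounded for the tests. The submitters' processing notes list Salmon. Its version, the annotation and the build are not given in the sources used here. Library totals were 10082734 to 75634391. Libraries of a group differed by more than sampling noise.

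Genes were tested in R 4.3.3 with edgeR 4.0.16 (filterByExpr, TMM, robust quasi-likelihood fit to all 12 libraries, Benjamini-Hochberg adjustment over 14599 genes), with the study's cutoffs of 0.05 and 1. DESeq2 1.42.0, which the study used, was an alternative, beside other scaling, filters, cutoffs, rounding, thinning, a replicate block and each library left out. All members are named. Other pathway genes are named if called, or among the 3 smallest p-values of a lactation comparison, and nearest profiles are the first 5. The members and lists were chosen with earlier results of these data known. The study's serum measurements were not analysed here.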

Additional observations from a re-analysis of the deposited data

How the results depend on the processing

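Pools of pairs of rats, 3 per group, limit the precision, and at 3 weeks the shallowest library held 10082734 counts. The replicate numbers did not pair the libraries: same-numbered libraries of compared groups had correlations of -0.233 to -0.005 between their deviations, and in 0 of 24 comparisons did a library correlate best with its own number. With the replicate block the counts of called members were 0 for lactation at 1 week, 0 at 3 weeks, 0 for the difference, 3 for time without lactation and 1 with it, as without the block, while over all genes the calls for lactation went from 37 to 8 at 1 week and from 108 to 64 at 3 weeks. The block gave -0.002 for Igf2r under lactation at 3 weeks, 0.01 for Igf2 in the difference between lactation effects, -0.012 for Igfbp7 over time without lactation and 0.012 for Igfbp6 over time with lactation, each of the opposite sign to its estimate without the block. For the difference all libraries are compared, so fits on only those compared were not run apart. The cause of the changes listed here was not tested.

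Called members were 0 to 1 for lactation at 1 week over the libraries left out, 1 to 4 for time without lactation and 0 to 1 for time with lactation. With no fold cutoff, 1 member, Igfbp5, was called for lactation at 3 weeks. For time with lactation 2 members, Igf2 and Igfbp4, were called at an adjusted p under 0.1, with DESeq2 on all libraries, with DESeq2 on only those compared (2) and with edgeR on only those compared (2). Over all genes, calls for lactation at 1 week went from 37 to between 2 and 235 with a library left out, 12 after thinning, 22 with at least 10 counts in every library, 110 with edgeR on the libraries compared, 188 with DESeq2 on all libraries and 332 on those compared. At 3 weeks they went from 108 to between 22 and 157 with a library left out, and to 246 and 172 with DESeq2. For time they went from 213 to between 61 and 554 without lactation and from 113 to between 27 and 77 with it when a library was left out, to 103 and 191 with edgeR on the libraries compared, and to 300 and 248 with DESeq2 on all libraries.

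The signs that turned belong to estimates that passed no test. Igf2r under lactation at 3 weeks was -0.013 with upper-quartile scaling, -0.015 with at least 10 counts in every library, -0.024 after thinning, 0 with DESeq2 and -0.009 with edgeR on only the libraries compared, and Igf2r in the difference was -0.01 after thinning. Igfbp7 over time without lactation was -0.002 with upper-quartile scaling, -0.017 with at least 10 counts in every library, -0.023 after thinning and -0.017 with edgeR on only the libraries compared. With each library left out, lactation at 1 week ranged from -0.11 to 0.088 for Igf2r, -0.134 to 0.293 for Igfbp3, -0.174 to 0.273 for Igfbp6 and -0.093 to 0.065 for Igfbp7, and at 3 weeks from -0.085 to 0.085 for Igf2r and -0.22 to 0.147 for Igfbp6. The difference ranged from -0.073 to 0.445 for Igf1, -0.383 to 0.198 for Igf2, -0.083 to 0.116 for Igf2r, -0.311 to 0.067 for Igfbp5 and -0.357 to 0.102 for Igfbp6. Time without lactation ranged from -0.018 to 0.176 for Igf1r and -0.217 to 0.167 for Igfbp7, and time with lactation from -0.004 to 0.429 for Igfbp3 and -0.164 to 0.29 for Igfbp6.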

Other observations

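H19 and Igfbp1, relatives of the members by locus or family, are given here as values and were chosen after their values were seen. H19, the imprinted non-coding RNA beside Igf2, stood at 21210 ± 4816 normalized CPM (SD, n = 3) at 1 week without lactation and 25980 ± 2979 with it, and at 15870 ± 4826 at 3 weeks without lactation and 15880 ± 3983 with it. Its log2 fold change with lactation was 0.29 at 1 week (edgeR adjusted p = 0.582) and 0.001 at 3 weeks (edgeR adjusted p = 0.999), beside -0.71 and -0.74 for Igf2. From 1 to 3 weeks it was -0.42 without lactation (edgeR adjusted p = 0.397) and -0.71 with it (edgeR adjusted p = 0.176), beside -1.67 and -1.70 for Igf2. Whether the changes of these neighbouring genes differ was not tested. Igfbp1, a binding protein made mainly by liver, had at most 0.120 normalized CPM in any library and failed the filter on low counts, and the 3 hepatocyte markers summed to at most 0.228.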
